A study of Mus musculus with 10 samples.

Results

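The 50 genes described here are the nuclear-encoded members of the respiratory chain from complex II to complex IV and of ATP synthase, among 56832 genes in the count table. They were chosen by symbol: Sdha, Sdhb, Sdhc, Sdhd, Cyc1, Cycs, and every name that begins with Uqcr, Cox4i, Cox5, Cox6, Cox7, Cox8 or Atp5, leaving out 12 names that contain "-ps". The rule gives 4 genes of complex II, 9 of complex III with Cyc1, the cytochrome c gene Cycs, 19 of complex IV and 17 of ATP synthase (complex V). RNA was sequenced from heart muscle cells of Sprr1a-GFP mice, whose reporter is a green fluorescent protein named for Sprr1a, and every library title carries the tag Hetz. Every mouse had a myocardial infarction at 12 weeks of age and was sampled 5 days later. Cells were freed by Langendorff digestion and sorted by flow cytometry, and both groups share the genotype and the infarct.

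The GFP+ group holds 5 libraries of cells labelled as border zone cardiomyocytes, and the GFP− group holds 5 libraries of cells labelled as remote zone cardiomyocytes. The libraries pair by the animal identifier in their titles, and the 5 mice are 21A4, 21A5, 21A7, 17C1 and 17C2. The titles of the GFP+ libraries name DAPI-negative and DAPI-positive cells together, whereas those of the GFP− libraries name DAPI-negative cells alone. DAPI enters cells with a broken membrane, so this gate differs along with the GFP label and the effects of the gate and the zone cannot be told apart. No group without an infarct was analysed here. The mouse identifiers fall into a 21A series of 3 mice and a 17C series of 2 mice, and the labels do not say what the series stand for.

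Total counts were 12244373 to 38879965 per library, and counts outside the mitochondrial genome were 3417972 to 16918067. All 8 cardiomyocyte markers checked (Myh6, Tnnt2, Actn2, Ttn, Myl2, Tnni3, Ryr2 and Pln) had counts in every library. Their summed share of counts outside the mitochondrial genome was 7.77% in 21A4, 6.96% in 21A5, 2.37% in 21A7, 1.90% in 17C1 and 2.89% in 17C2 in GFP+ libraries. In GFP− libraries it was 8.72% in 21A4, 5.09% in 21A5, 1.28% in 21A7, 6.15% in 17C1 and 7.23% in 17C2. Mouse 21A7 stood apart: mitochondrially encoded genes took 91.2% of counts in its GFP+ library and 9.20% in its GFP− library, against 35.7% to 73.1% in the other GFP+ libraries and 26.5% to 61.9% in the other GFP− libraries. The summed share of 8 fibroblast markers was 0.475%, 0.385% and 1.40% in the GFP+ libraries of 21A4, 21A5 and 21A7, and 2.02%, 3.29% and 4.36% in their GFP− libraries. In 17C1 and 17C2 it was 0.0380% and 0.0516% in GFP+ libraries and 0.0235% and 0.0494% in GFP− libraries. In such pooled RNA, fewer cells of a type and less RNA per cell cannot be told apart.

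Complex II passes electrons from succinate to ubiquinone, complex III passes them on to cytochrome c, and complex IV (cytochrome c oxidase) hands them to oxygen. Complexes III and IV pump protons across the inner mitochondrial membrane, and ATP synthase uses the returning protons to make the ATP that a beating cardiomyocyte consumes. Several subunits of complex IV come in alternative isoforms: Cox6a2, Cox7a1 and Cox8b are the forms of heart and skeletal muscle, and Cox6a1, Cox7a2 and Cox8a are their ubiquitous counterparts.

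The results turn on these isoform pairs, so the stretch of 250 bases before the start of 5 of the 6 isoform genes is shown here, from RefSeq on build GRCm38.p6. Each is written from 5′ to 3′ on the gene's own strand, and capitals mark matches to the NRF1 core GCGCANGCGC, the ETS core CCGGAA or the E-box CANNTG on either strand.
Cox6a1, chr5:115348959-115349208, minus strand: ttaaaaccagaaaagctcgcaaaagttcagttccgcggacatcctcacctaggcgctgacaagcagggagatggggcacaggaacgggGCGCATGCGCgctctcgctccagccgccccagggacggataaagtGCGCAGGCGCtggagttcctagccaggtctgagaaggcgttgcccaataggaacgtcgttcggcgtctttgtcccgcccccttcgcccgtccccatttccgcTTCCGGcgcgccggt
Cox7a2, chr9:79759854-79760103, minus strand: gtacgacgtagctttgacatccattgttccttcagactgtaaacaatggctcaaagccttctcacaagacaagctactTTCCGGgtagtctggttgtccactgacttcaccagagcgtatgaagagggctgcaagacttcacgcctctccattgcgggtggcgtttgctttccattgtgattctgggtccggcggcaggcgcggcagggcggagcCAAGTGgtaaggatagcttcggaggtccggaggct
Cox8a, chr19:7217617-7217866, minus strand: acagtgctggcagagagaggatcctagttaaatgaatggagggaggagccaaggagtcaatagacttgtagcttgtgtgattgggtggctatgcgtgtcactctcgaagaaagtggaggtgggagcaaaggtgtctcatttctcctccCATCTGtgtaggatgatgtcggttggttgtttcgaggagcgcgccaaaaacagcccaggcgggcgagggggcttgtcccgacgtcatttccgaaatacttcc
Cox7a1, chr7:30183921-30184170, plus strand: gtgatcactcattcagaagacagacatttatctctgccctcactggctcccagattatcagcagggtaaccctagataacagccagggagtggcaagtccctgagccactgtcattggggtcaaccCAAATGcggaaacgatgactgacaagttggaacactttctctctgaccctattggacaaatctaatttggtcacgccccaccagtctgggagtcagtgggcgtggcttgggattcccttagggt
Cox8b, chr7:140900447-140900696, minus strand: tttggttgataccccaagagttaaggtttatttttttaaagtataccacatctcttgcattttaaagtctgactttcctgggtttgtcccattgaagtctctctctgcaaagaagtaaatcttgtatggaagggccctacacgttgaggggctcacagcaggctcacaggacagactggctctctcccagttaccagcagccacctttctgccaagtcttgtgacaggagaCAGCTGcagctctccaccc
The window of Cox6a1 held 2 matches to the NRF1 core, which occurred in 3.74% of 32851 promoter windows of the same length, and 1 to the ETS core, which occurred in 12% of them. Cox7a2 had 1 ETS core and 1 E-box. Cox8a, Cox7a1 and Cox8b had 1 E-box each, a motif present in 66.2% of all windows. Matches to the ERR element TNAAGGTCA (1.14% of windows) and to the MEF2 consensus (2.92% of windows) were looked for on both strands, and none lay in these 5 windows. The matches did not overlap one another, and they describe letters in a window, not binding.

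In all 5 mice together, no member of these complexes passed the test between GFP+ and GFP− cells. Of the 50 members, 46 had enough counts to be tested, and the median log2 fold change of the 46 (GFP+ over GFP−) was −0.11, beside −0.04 over all 12115 genes tested. The fit paired libraries by mouse and used the quasi-likelihood test of edgeR with Benjamini-Hochberg adjustment over all 12115 genes. It called 0 of 46 members at an adjusted p under 0.05, against 0.858% of all tested genes (83 higher and 21 lower). None had an unadjusted p under 0.05 either, and the adjusted p of the members ran between 0.340 and 0.996. DESeq2 and limma voom with the same pairing also called 0 members, with 0 and 2 members at an unadjusted p under 0.05. Of all 12115 genes DESeq2 called 450 higher and 436 lower, and limma voom 577 higher and 586 lower. By complex, the median log2 fold change was −0.18 for complex II, −0.01 for complex III, −0.12 for complex IV and −0.10 for ATP synthase. The 4 untested members were Cox6b2, Cox7b2 and Cox8c, known as testis isoforms, and Cox6c2, with at most 19, 3, 0 and 11 counts in a library.

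The individual mice did not share a direction. No member was higher in GFP+ cells of all 5 mice, where 9.14% of all tested genes were, and none was lower in all 5, where 8.02% were. No member had GFP+ and GFP− libraries that did not overlap, a pattern of 1.54% of genes for higher GFP+ values and 0.916% for lower ones. The median difference of the 46 members (log2 CPM, GFP+ minus GFP−) was 0.11 in 21A4, 0.59 in 21A5 and 0.90 in 21A7, but −1.27 in 17C1 and −0.89 in 17C2. CPM here are counts scaled to a common library size with TMM factors, which set most genes equal on average. On this scale 33 of 46 members were higher in GFP+ cells of all 3 21A mice, against 23.2% of all tested genes, and 44 were lower in GFP+ cells of both 17C mice, against 33.3%. The same 33 members had both patterns, which 7.68% of all tested genes had. The plot of members by mouse shows the separation gene by gene.

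**Figure D1:**
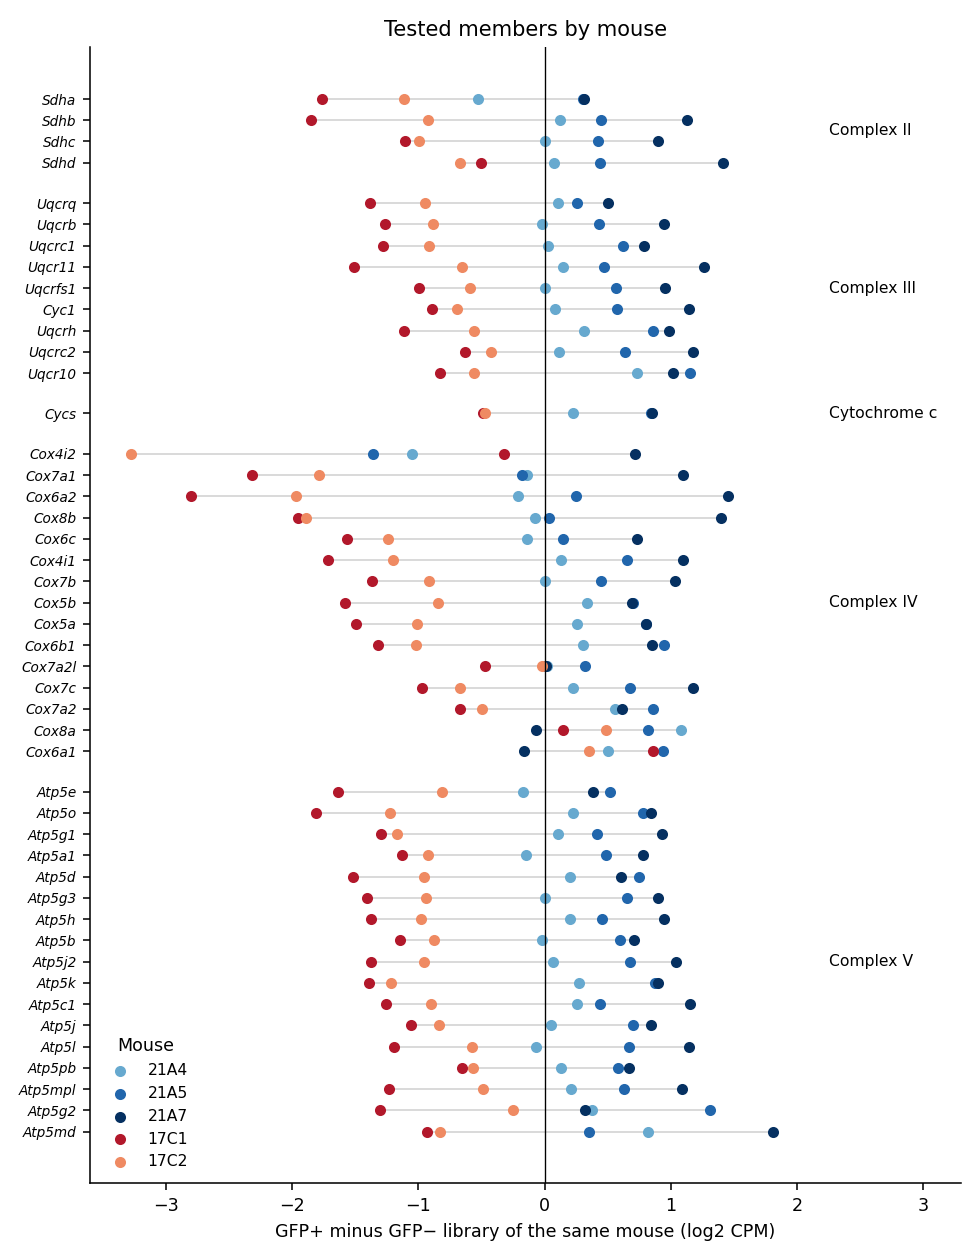
Difference between the GFP+ and the GFP− library of each mouse (horizontal axis, log2 CPM) for the 46 tested members (vertical axis, by complex); each point is 1 mouse and the grey line spans the 5 mice. In most rows the 21A mice lie right of 0 and the 17C mice left of it on this scale (with sarcomere scaling the 21A median turned to −0.48), whereas Cox6a1 and Cox8a have both 17C mice right of 0.

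The series were therefore also fitted separately and set against each other. In the 21A mice 1 of 46 members was called, the complex III subunit Uqcr10, which rose in GFP+ cells, against 2.67% of all genes tested there that were called higher. None was lower, against 4.05% of all genes. The 21A median was 0.57 for the members and −0.06 for all genes on the TMM scale, but −0.48 and −1.11 with libraries scaled to sarcomere genes and −1.49 and −2.08 with library totals alone. For the 17C mice, 34 of 45 tested members were lower in GFP+ cells and 0 higher, against 7.52% of all genes called lower and 6.08% called higher. The 17C median was −1.07 for the members and −0.01 for all genes. The 17C fit rests on 2 mice, so its SE and p draw largely on variance shared across genes and do not measure the spread between the mice. Cox8b, at −1.96 in 17C1 and −1.89 in 17C2, had an SE of 0.27. Sdhb, at −1.85 and −0.92, had one of 0.29. The 17C count of 34 was 15 with library totals alone, against 4.02% of all genes called lower. It was 6 (4 lower and 2 higher) when libraries were scaled to sarcomere genes. The difference between the series, tested as an interaction in edgeR over all 5 mice, was called for 30 of 46 members, all with the more positive change in the 21A mice, against 3.57% of all genes in that direction and 4.04% in the other. The fold changes of the members in the 2 series are plotted against each other.

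**Figure D2:**
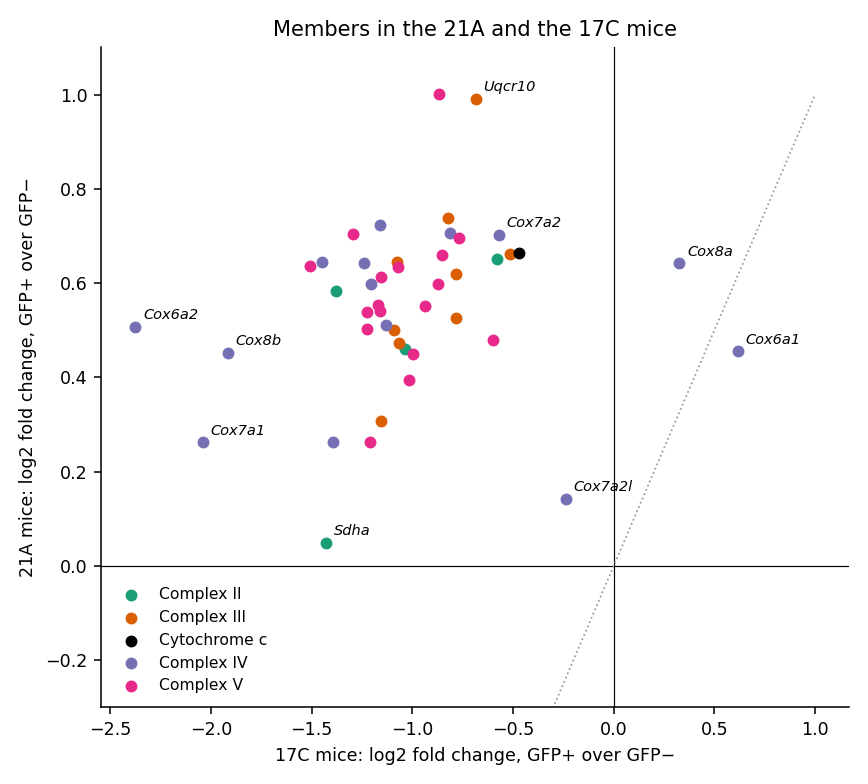
Log2 fold change (GFP+ over GFP−) in the 21A mice (vertical axis) and in the 17C mice (horizontal axis) for the 45 members tested in both fits; each point is a member, coloured by complex, and the dotted line marks equal change. The muscle isoforms Cox6a2, Cox7a1 and Cox8b lie farthest left at −2.38, −2.04 and −1.92 in the 17C mice, and Cox6a1 and Cox8a lie right of 0.

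The number of members called for that series difference depended on the scaling and on single mice. When libraries were scaled to the summed counts of 17 sarcomere genes (among them Myh6, Ttn and Tnnt2), 0 members were called with the more positive change in the 21A mice and 2 with the more negative, Cox6a1 (−2.06, edgeR adjusted p = 0.0220) and Cox7a2l (−1.53, adjusted p = 0.0380). On that scale 0.0495% of all genes were called more positive in the 21A mice and 40.4% more negative, so the 2 of 46 lie below the share of all genes. The median difference of the 46 members between the series was then −0.36, with −1.89 over all genes. The median of the sarcomere genes moved with that of the members: the difference, GFP+ minus GFP−, was 0.52, 1.24 and 1.69 in 21A4, 21A5 and 21A7, and −1.26 and −0.75 in 17C1 and 17C2. Single sarcomere genes spread widely, from −3.21 to 1.05 in 17C1 and from −2.30 to 0.47 in 17C2. On the sarcomere scale 5 of the 17 were called higher and 5 lower in the 17C mice, and 0 higher and 1 lower in the 21A mice. The list is therefore not a uniform reference. With library totals alone the count of members was 0, with 0 at an unadjusted p under 0.05. On that scale 0 of 12115 genes were called more positive in the 21A mice and 473 more negative. The median difference was −0.67 for the members and −2.15 over all genes. Library totals include mitochondrially encoded counts, which were 91.2% in the GFP+ and 9.20% in the GFP− library of 21A7. With a covariate for the markers of other heart cells (fibroblasts, macrophages, endothelial and mural cells) the count of members was also 0, with 34 at an unadjusted p under 0.05. Of all 12115 genes, that fit called 0 more positive in the 21A mice and 1 more negative. Leaving out 21A5 or 17C1 left 0 members called, with 39 and 33 at an unadjusted p under 0.05. Among all genes, 0 were then called more positive in the 21A mice, and 1 of 11806 and 0 of 12519 more negative. Leaving out 21A4, 21A7 or 17C2 left 13, 16 and 16 members. Beside them 193 of 11856, 252 of 12077 and 419 of 12583 genes were called more positive. Without the pairing by mouse 0 members and 0 of all 12115 genes were called, with 4 members at an unadjusted p under 0.05. DESeq2 and limma voom called 41 and 40 members, against 7.17% and 4.99% of all genes in that direction. The part of the fibroblast share, which was higher in GFP− than in GFP+ libraries in the 21A mice alone, was not tested beyond that covariate.

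**Figure D3:**
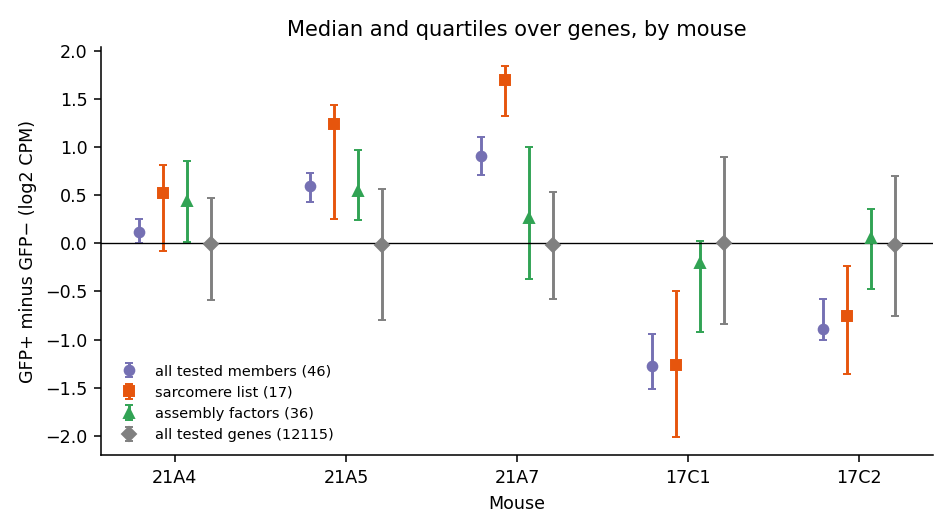
Median and quartiles over genes of the difference between the GFP+ and the GFP− library of each mouse (vertical axis, log2 CPM; horizontal axis, mouse) for the members, the sarcomere list, the assembly factors and all tested genes; the numbers of genes are in the legend. The medians of the members and of the sarcomere list lie above 0 in the 21A mice and below 0 in the 17C mice. Those of the assembly factors stay between −0.20 and 0.54. With sarcomere scaling the 21A median of the members turned to −0.48.

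Complex II links the chain to the citric acid cycle, with Sdha as its flavin-carrying subunit, Sdhb as its iron-sulfur subunit, and Sdhc and Sdhd as its membrane anchors. Sdha had 253 CPM in 21A4, 263 in 21A5, 95.3 in 21A7, 128 in 17C1 and 175 in 17C2 in GFP+ cells. In GFP− cells it had 366 CPM in 21A4, 214 in 21A5, 76.7 in 21A7, 435 in 17C1 and 378 in 17C2. The GFP+ library was below its GFP− partner in 21A4 and both 17C mice and above it in 21A5 and 21A7, and the groups overlapped. Over 5 mice its log2 fold change was −0.55 ± 0.37 (SE, adjusted p = 0.527, edgeR). It fell in GFP+ cells of the 17C mice, by 1.43 on the log2 scale (adjusted p = 0.000985).

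Sdhb stood at 168 CPM in 21A4, 149 in 21A5, 51.3 in 21A7, 109 in 17C1 and 178 in 17C2 in GFP+ cells. Its GFP− libraries had 155 CPM in 21A4, 109 in 21A5, 23.4 in 21A7, 391 in 17C1 and 339 in 17C2. The GFP+ library was the higher of the pair in every 21A mouse and the lower in both 17C mice. The log2 fold change was −0.20 ± 0.44 over 5 mice (SE, edgeR adjusted p = 0.873), and 0.58 in the 21A mice against −1.38 in the 17C mice, a difference of 1.95 (adjusted p = 0.0346). In the 17C mice 3 of 4 complex II members fell, all but Sdhd (−0.58, edgeR adjusted p = 0.161), against 7.52% of all genes. The series difference was called for 2 of 4, Sdhb and Sdhc, against 3.57% of all genes. With sarcomere scaling 0 of 4 were called in the 17C mice and 0 of 4 between the series.

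Complex III oxidises ubiquinol, and Cycs carries its electrons to complex IV. Uqcr10, a small subunit of complex III, had 36.2 CPM in 21A4, 38.9 in 21A5, 13.1 in 21A7, 36.5 in 17C1 and 43.5 in 17C2 in GFP+ cells. It had 21.8 CPM in 21A4, 17.5 in 21A5, 6.44 in 21A7, 65.1 in 17C1 and 64.1 in 17C2 in GFP− cells. In the 21A mice it was the only member past the threshold, with a log2 fold change of 0.99 ± 0.22 (SE, edgeR adjusted p = 0.0298) and a higher level in GFP+ cells of 3 of 3 mice. Its 17C value was −0.69 (adjusted p = 0.0999), lower in GFP+ cells of both. The call in the 21A mice was lost without 21A4, without 21A5, with library totals alone, with sarcomere scaling and without the pairing by mouse, when 0 members were called there. Without the pairing 0 of all 13221 genes were called in the 21A mice.

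Uqcrq, another small subunit of complex III, had 156 CPM in 21A4, 129.7 in 21A5, 38.2 in 21A7, 181 in 17C1 and 234 in 17C2 in GFP+ cells. In GFP− cells the values were 145 CPM in 21A4, 109 in 21A5, 27.0 in 21A7, 472 in 17C1 and 451 in 17C2. GFP+ cells were higher in each 21A mouse and lower in each 17C mouse, and the groups overlapped. Its change was 0.31 ± 0.23 in the 21A mice (SE, edgeR adjusted p = 0.457) and −1.16 ± 0.27 in the 17C mice (adjusted p = 0.00493). Of the 9 members of complex III, 6 fell in the 17C mice, against 7.52% of all genes. The series difference was called for 6, against 3.57% of all genes. With sarcomere scaling 0 of 9 were called in the 17C mice and 0 of 9 between the series.

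Cycs, the soluble electron carrier whose release into the cytosol can also start apoptosis, had 149 CPM in 21A4, 159 in 21A5, 47.8 in 21A7, 194 in 17C1 and 215 in 17C2 in GFP+ cells. It had 127 CPM in 21A4, 88.4 in 21A5, 26.4 in 21A7, 272 in 17C1 and 298 in 17C2 in GFP− cells. The groups overlapped, and 21A7 was lowest in both. Cycs passed in no fit: its log2 fold change was 0.19 over 5 mice, 0.66 in the 21A mice and −0.47 in the 17C mice (edgeR adjusted p = 0.813, 0.134 and 0.273).

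ATP synthase is built from a catalytic head, a rotor with a membrane ring, and a stator. Atp5e, the epsilon subunit of the rotor stalk, had 50.1 CPM in 21A4, 53.6 in 21A5, 18.8 in 21A7, 55.4 in 17C1 and 84.7 in 17C2 in GFP+ cells. In GFP− cells it had 56.4 CPM in 21A4, 37.5 in 21A5, 14.4 in 21A7, 172 in 17C1 and 148 in 17C2. GFP+ was below GFP− in 21A4 and both 17C mice and above it in 21A5 and 21A7. Its log2 fold change over 5 mice was −0.33 ± 0.34 (SE, edgeR adjusted p = 0.704), and in the 17C mice it fell by 1.21 (adjusted p = 0.00478).

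Atp5md, a small membrane subunit also known as DAPIT, had 38.7 CPM in 21A4, 21.9 in 21A5, 14.9 in 21A7, 49.7 in 17C1 and 48.9 in 17C2 in GFP+ cells. Its GFP− values were 21.9 CPM in 21A4, 17.2 in 21A5, 4.19 in 21A7, 94.7 in 17C1 and 86.9 in 17C2. It was higher in GFP+ cells of 3 of 3 21A mice and lower in both 17C mice. Its change was 1.001 ± 0.30 in the 21A mice (SE, edgeR adjusted p = 0.0774) and −0.87 ± 0.26 in the 17C mice (adjusted p = 0.0296), a difference of 1.86 (adjusted p = 0.0367). Of the 17 ATP synthase members, 15 fell in GFP+ cells of the 17C mice, all but Atp5g2 and Atp5pb, against 7.52% of all genes. The series difference was called for 11, against 3.57% of all genes. With sarcomere scaling 1 of 17 was called lower in the 17C mice, against 1.9% of all genes, and 0 differed between the series. The catalytic-head subunits Atp5a1 and Atp5b had log2 fold changes of 0.39 and 0.45 in the 21A mice (adjusted p = 0.518 and 0.44). The same 2 genes were at −1.01 and −0.999 in GFP+ cells of the 17C mice, with adjusted p = 0.00873 and 0.00978.

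In complex IV the mitochondrial genome supplies the catalytic core, and the nuclear subunits surround it. Cox4i1, the usual form of the subunit through which ATP regulates the enzyme, had 230.4 CPM in 21A4, 243 in 21A5, 86.97 in 21A7, 221 in 17C1 and 273 in 17C2 in GFP+ cells. It had 211 CPM in 21A4, 155 in 21A5, 40.7 in 21A7, 724 in 17C1 and 629.6 in 17C2 in GFP− cells. In both groups 21A7 was the lowest. Its log2 fold change was 0.64 ± 0.27 in the 21A mice (SE, edgeR adjusted p = 0.183) and −1.45 ± 0.27 in the 17C mice (adjusted p = 0.000742), and these differed by 2.08 (adjusted p = 0.0271).

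Cox6b1, a subunit on the intermembrane-space face, had 93.8 CPM in 21A4, 112 in 21A5, 29.8 in 21A7, 86.5 in 17C1 and 104 in 17C2 in GFP+ cells. It had 75.9 CPM in 21A4, 58.1 in 21A5, 16.4 in 21A7, 216 in 17C1 and 212 in 17C2 in GFP− cells. GFP+ exceeded GFP− in each 21A mouse and fell short of it in each 17C mouse. Its log2 fold change was 0.72 in the 21A mice and −1.16 in the 17C mice (edgeR adjusted p = 0.0948 and 0.00433). Its testis isoform Cox6b2 was not tested, and its level was at most 1.81 CPM, in the GFP+ library of 21A7. Cox4i1 and Cox6b1 belong to a set of 7 subunits with no muscle isoform (with Cox5a, Cox5b, Cox6c, Cox7b and Cox7c). Of these, 7 of 7 fell in the 17C mice with a median of −1.20, against 7.52% of all genes called lower. The sarcomere genes had a median of −1.05 in that fit. With sarcomere scaling 0 of 7 were called and their median was −0.34. With library totals alone 4 of 7 were called lower, against 4.02% of all genes.

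Cox4i2, the form of subunit 4 found mainly in lung and induced by low oxygen, had at most 108 counts in a library. It stood at 0.952 CPM in 21A4, 0.781 in 21A5, 2.67 in 21A7, 0.652 in 17C1 and 0 in 17C2 in GFP+ cells. In GFP− cells it stood at 2.06 CPM in 21A4, 2.12 in 21A5, 1.59 in 21A7, 0.837 in 17C1 and 0.709 in 17C2. The 0 in the GFP+ library of 17C2 allows up to 3 counts, or 0.286 CPM, for counting error alone. It was lower in GFP+ cells of 4 of 5 mice, with 21A7 the exception, and its log2 fold change was −1.01 ± 0.83 (SE, edgeR adjusted p = 0.623).

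Relative to the median of the 7 subunits with no muscle isoform in the same mouse, the 3 muscle isoforms were lower and their 3 ubiquitous counterparts higher in GFP+ cells of 4 of 5 mice, and 21A7 had the opposite order. In those 4 mice the muscle isoforms lay between −0.30 and −1.31 on the log2 scale and the ubiquitous ones between 0.14 and 2.35. The reference itself was at −1.49 in 17C1 and −1.01 in 17C2, with the median of all genes at 0 and −0.01. Cox7a2l also lay above the reference there, by 1.02 and 0.99, but below it in each 21A mouse. Lying above the reference in the 17C mice was thus not particular to the ubiquitous isoforms. Cox6a2, the heart and muscle form of subunit 6A, had 224 CPM in 21A4, 191 in 21A5, 85.6 in 21A7, 106 in 17C1 and 207 in 17C2 in GFP+ cells. In GFP− cells it had 259 CPM in 21A4, 161 in 21A5, 31.2 in 21A7, 743 in 17C1 and 811 in 17C2. GFP+ was lower in 21A4 and both 17C mice and higher in 21A5 and 21A7. Its log2 fold change was 0.51 in the 21A mice (edgeR adjusted p = 0.402), and in the 17C mice it fell by 2.38 ± 0.29 (SE, adjusted p = 5.46e-06).

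Cox6a1, its ubiquitous counterpart, had 23.6 CPM in 21A4, 30.7 in 21A5, 17.7 in 21A7, 39.4 in 17C1 and 33.7 in 17C2 in GFP+ cells. It had 16.6 CPM in 21A4, 15.95 in 21A5, 19.8 in 21A7, 21.7 in 17C1 and 26.4 in 17C2 in GFP− cells. GFP+ was the higher in 4 of 5 mice, both 17C mice among them, and lower in 21A7. The log2 fold change was 0.50 ± 0.23 over 5 mice, 0.46 in the 21A mice and 0.62 in the 17C mice (SE, edgeR adjusted p = 0.34, 0.326 and 0.198), so it passed in none of them. In raw counts, 17C1 gave 362 reads of Cox6a1 in GFP+ cells and 363 in GFP− cells, but 978 and 12414 reads of Cox6a2. These libraries differed in depth, with 6380862 and 9272479 counts outside the mitochondrial genome. Among the 5 mice 17C1 had the largest shift between these genes.

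Cox7a1, the muscle form of subunit 7A, had 73.7 CPM in 21A4, 54.8 in 21A5, 17.6 in 21A7, 57.2 in 17C1 and 72.5 in 17C2 in GFP+ cells. Its GFP− libraries had 81.2 CPM in 21A4, 62.1 in 21A5, 8.17 in 21A7, 285 in 17C1 and 249.7 in 17C2. GFP+ was lower in 4 of 5 mice, with 21A7 the exception. On the log2 scale Cox7a1 was at 0.26 in the 21A mice (edgeR adjusted p = 0.631) and fell by 2.04 ± 0.28 in the 17C mice (SE, adjusted p = 2.02e-05).

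Cox7a2, the ubiquitous form, had 54.0 CPM in 21A4, 47.8 in 21A5, 12.2 in 21A7, 75.9 in 17C1 and 97.3 in 17C2 in GFP+ cells. It had 36.6 CPM in 21A4, 26.3 in 21A5, 7.92 in 21A7, 121 in 17C1 and 137 in 17C2 in GFP− cells. It was higher in GFP+ cells of the 21A mice and lower in those of the 17C mice, with log2 fold changes of 0.70 and −0.57 that passed in neither series (edgeR adjusted p = 0.0723 and 0.167). Cox7a2l, a relative of subunit 7A that joins complex III to complex IV in supercomplexes, had 30.1 CPM in 21A4, 32.3 in 21A5, 11.7 in 21A7, 43.6 in 17C1 and 53.6 in 17C2 in GFP+ cells. The GFP− cells had 29.7 CPM in 21A4, 25.8 in 21A5, 11.6 in 21A7, 60.6 in 17C1 and 54.3 in 17C2. The groups overlapped, and the level was nearly equal between the groups in 21A4, 21A7 and 17C2. Its log2 fold change was −0.03 ± 0.20 over 5 mice (SE, edgeR adjusted p = 0.968).

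Cox8b, the muscle form of subunit 8, had 85.2 CPM in 21A4, 65.5 in 21A5, 17.6 in 21A7, 81.9 in 17C1 and 82.3 in 17C2 in GFP+ cells. It had 89.6 CPM in 21A4, 63.9 in 21A5, 6.62 in 21A7, 318 in 17C1 and 306 in 17C2 in GFP− cells. The 17C pairs were the farthest apart, with GFP+ below GFP−. Its log2 change was 0.45 in the 21A mice (edgeR adjusted p = 0.412), and it fell by 1.92 ± 0.27 in the 17C mice (SE, adjusted p = 2.94e-05).

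Cox8a, the ubiquitous form, had 46.1 CPM in 21A4, 42.6 in 21A5, 19.96 in 21A7, 73.5 in 17C1 and 74.9 in 17C2 in GFP+ cells. It had 21.7 CPM in 21A4, 24.1 in 21A5, 20.97 in 21A7, 66.4 in 17C1 and 53.5 in 17C2 in GFP− cells. As with Cox6a1, GFP+ was the higher in 4 of 5 mice and slightly lower in 21A7. The log2 fold change was 0.50 ± 0.24 over 5 mice, 0.64 in the 21A mice and 0.33 in the 17C mice (SE, edgeR adjusted p = 0.369, 0.17 and 0.504).

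When scaled to the sarcomere genes, the 17C mice still had 6 members called: the muscle isoforms Cox6a2, Cox7a1 and Cox8b and the ATP synthase stator subunit Atp5o (named after its value was seen) were lower in GFP+ cells, and the ubiquitous Cox6a1 and Cox8a were higher. Of all genes tested there, 1.9% were called lower and 28% higher on that scale, so 4 of 45 members lower lie above the share of all genes and 2 of 45 higher lie below it. By complex, the 17C medians on that scale were −0.35 for complex II, 0.04 for complex III, −0.32 for complex IV and −0.21 for ATP synthase. On that scale the median of the muscle isoforms in the 17C mice was −1.18, that of the ubiquitous isoforms 1.19, that of the 45 members −0.21 and that of all genes 0.85. In the 21A mice the scaling turned the sign of both groups, with medians of −0.58 for the muscle isoforms and −0.41 for the ubiquitous ones and −1.11 for all genes. The plot of isoforms against the other subunits sets each isoform's difference against the median of the 7 subunits with no muscle isoform in the same mouse, so that the scaling cancels.

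**Figure D4:**
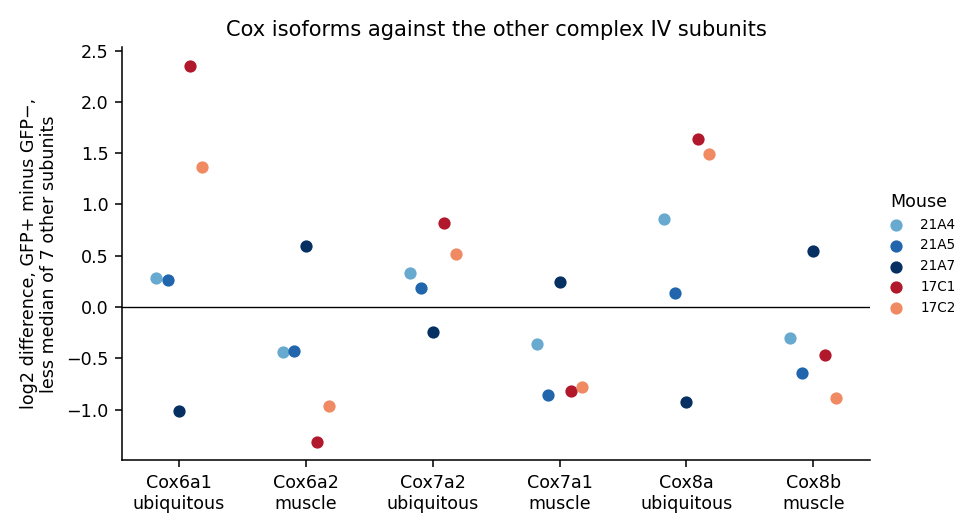
Difference between GFP+ and GFP− of each Cox isoform less the median difference of the 7 complex IV subunits with no muscle isoform (vertical axis, log2; horizontal axis, isoform); each point is 1 mouse. In 21A4, 21A5, 17C1 and 17C2 the ubiquitous isoforms lie above 0 and the muscle isoforms below it, and in 21A7 the order is turned round.

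The ratio of the ubiquitous to the muscle isoform within a library does not depend on the scaling of libraries. Because it also depends on the lengths of both transcripts, only its shift between libraries was read. In GFP+ cells the log2 ratio of Cox6a1 to Cox6a2 (counts, 0.5 added to each) was −3.24 in 21A4, −2.64 in 21A5, −2.27 in 21A7, −1.43 in 17C1 and −2.62 in 17C2. In GFP− cells it was −3.96 in 21A4, −3.34 in 21A5, −0.66 in 21A7, −5.09 in 17C1 and −4.94 in 17C2. The ratio was higher in GFP+ cells by 1.65-fold in 21A4, 1.62-fold in 21A5, 12.7-fold in 17C1 and 5.00-fold in 17C2, and it was 3.06-fold lower in GFP+ cells of 21A7.

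For Cox7a2 to Cox7a1 the log2 ratio was −0.45, −0.20, −0.53, 0.41 and 0.43 in GFP+ cells of 21A4, 21A5, 21A7, 17C1 and 17C2. In GFP− cells of the same mice it was −1.15, −1.24, −0.05, −1.24 and −0.87. For Cox8a to Cox8b it was −0.89, −0.62, 0.18, −0.16 and −0.13 in GFP+ cells. In GFP− cells it was −2.05, −1.41, 1.66, −2.26 and −2.51. In both pairs the GFP+ library had the higher ratio in 4 of 5 mice and the lower one in 21A7, and the GFP− library of 21A7 had the highest GFP− ratio.

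The mean shift (GFP+ minus GFP−, log2, ± SD, n = 5 mice) was 1.16 ± 1.98 for Cox6a1 to Cox6a2, 0.84 ± 0.82 for Cox7a2 to Cox7a1 and 0.99 ± 1.53 for Cox8a to Cox8b. By exact sign flips over the 5 mice, two-sided, p was 0.3125, 0.125 and 0.25. With Cox4i2 to Cox4i1 as the fourth ratio (−0.99 ± 1.63, exact p = 0.25), the adjusted p was 0.3125 for each, and 0.0625 is the smallest p that 5 pairs allow. The fourth value rests on few Cox4i2 counts, 0 of them in 17C2 GFP+, and was −0.20 with 5 counts added to each gene in place of 0.5. Without 21A7, the mouse with the opposite shift, the mean shifts of the first 3 ratios were 1.85, 1.17 and 1.61. The ratios were then higher in GFP+ cells in 4 of 4 mice (exact p = 0.125 for each, the smallest that 4 pairs allow). With any other mouse left out, the mean shifts were 0.53 to 1.27, 0.64 to 0.87 and 0.64 to 1.04. Exact sign flips then gave p from 0.25 to 0.625. The smallest shift of the first ratio came without 17C1 and that of the third without 17C2. Fibroblasts use the ubiquitous isoforms, and their share was highest of all in the GFP− library of 21A7. The part of the fibroblast share in the ratios was not tested.

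**Figure D5:**
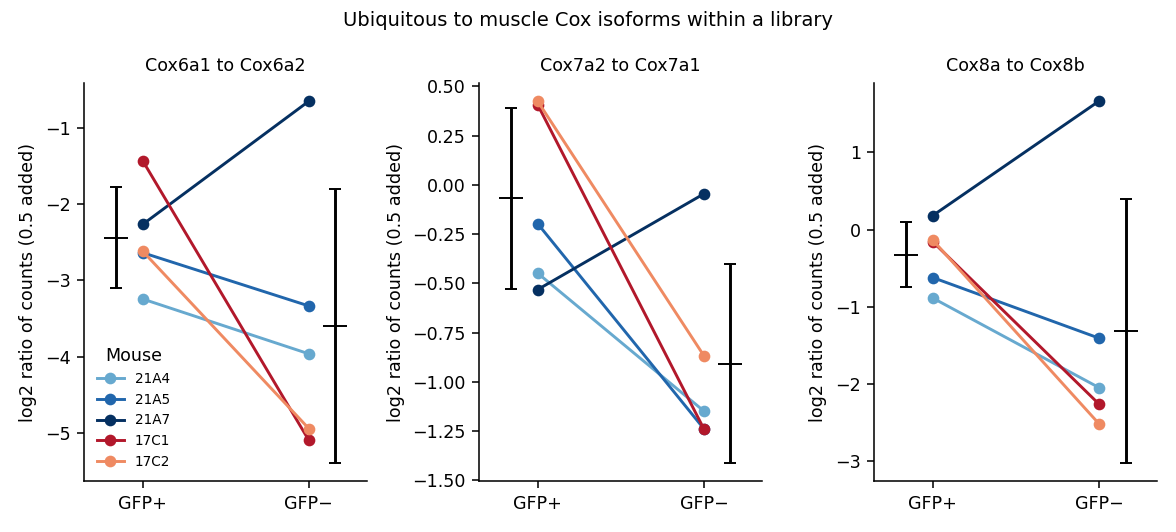
Log2 ratio of the counts of the ubiquitous to the muscle isoform (vertical axis; 0.5 added to each count) in the GFP+ and the GFP− library of each mouse, joined by a line; black bars give the mean ± SD of the 5 libraries of a group. Lines of 21A4, 21A5, 17C1 and 17C2 run down to GFP−, and those of 21A7 run up.

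Of the other genes tied to these complexes, 40 assembly factors were listed and 36 tested. Over 5 mice 0 of 36 were called by edgeR, with a median of 0.20, beside −0.04 for all genes. In the 21A mice 3 of 36 rose in GFP+ cells, against 2.67% of all genes: Uqcc2, an assembly factor of complex III (1.17, edgeR adjusted p = 0.0133), Cox19, which helps to supply copper to complex IV in yeast (1.45, adjusted p = 0.0298), and Coa5, an assembly factor of complex IV (1.07, adjusted p = 0.0249). Among the 17C mice 2 of 35 fell, which is no more than the 7.52% of all genes: Sdhaf2, which attaches the flavin to Sdha (−1.36, adjusted p = 0.0352), and Fmc1, needed for ATP synthase assembly in yeast (−1.15, adjusted p = 0.027). Their median there was −0.11, beside −1.07 for the members, and 1 of 36, Fmc1, differed between the series (2.10, adjusted p = 0.0317), beside 30 of 46 members and 3.57% of all genes. With sarcomere scaling 0 of 36 were called in the 21A mice, where 0.666% of all genes were called higher and 37.3% lower. In the 17C mice 9 of 35 were higher in GFP+ cells on that scale, which is near the 28% of all genes.

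Atpif1, the peptide that stops ATP synthase from running backwards and breaking down ATP, had 28.1 CPM in 21A4, 28.6 in 21A5, 14.1 in 21A7, 21.4 in 17C1 and 26.8 in 17C2 in GFP+ cells. It had 11.7 CPM in 21A4, 12.1 in 21A5, 6.92 in 21A7, 40.9 in 17C1 and 26.7 in 17C2 in GFP− cells. The groups overlapped: GFP+ cells were higher in each 21A mouse, lower in 17C1 and level in 17C2. On the TMM scale it rose in GFP+ cells of the 21A mice, 3 of 3, by 1.20 ± 0.23 (log2, SE, edgeR adjusted p = 0.0176). It was at −0.45 in the 17C mice (adjusted p = 0.417). In the 21A mice the median of all genes was −0.06 on the TMM scale. That median was −1.11 with sarcomere scaling and −2.08 with library totals alone. The size of the rise therefore depends on the scaling, and its sign may too. With the mice of both series together, the log2 fold change of Atpif1 was 0.54 on the TMM scale and 0.25 with sarcomere scaling. It was −0.59 with library totals alone, and it was called on none of these scales. Its value in the 21A mice alone on the other scales is not given here.

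Ndufa4, once counted with complex I and now with complex IV, had 75.8 CPM in 21A4, 74.2 in 21A5, 21.7 in 21A7, 90.6 in 17C1 and 112 in 17C2 in GFP+ cells. It had 66.9 CPM in 21A4, 52.7 in 21A5, 13.8 in 21A7, 217 in 17C1 and 188 in 17C2 in GFP− cells. As for Uqcrq, GFP+ cells were higher in every 21A mouse and lower in both 17C mice, with overlapping groups. Like the complex IV subunits with no muscle isoform, it was at 0.46 in the 21A mice (log2, edgeR adjusted p = 0.228) and fell in GFP+ cells of the 17C mice (−0.99 ± 0.27, SE, adjusted p = 0.0149).

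The mitochondrial genome encodes 6 further subunits of these complexes, of which 4 were tested. None was called over 5 mice by edgeR (adjusted p = 0.497 to 0.813). In the 21A mice mt-Co2 rose, with a log2 fold change of 4.97 (adjusted p = 0.0177) on at most 163 counts in a library, and mt-Co1, the catalytic subunit of complex IV, and mt-Cytb of complex III were at 2.997 and 3.38 (adjusted p = 0.253 and 0.199). For the 17C mice, mt-Co1 fell by 1.37 (adjusted p = 0.000175) and mt-Cytb fell by 0.97 (adjusted p = 0.00551), and mt-Atp6 was at −0.74 (adjusted p = 0.822). With sarcomere scaling 4 of 4 were called higher in GFP+ cells of the 21A mice, against 0.666% of all genes, and 1 of 3 lower in those of the 17C mice, against 1.9%. On the TMM scale all 4 were higher in GFP+ cells of each 21A mouse, but by uneven amounts. Their median difference (log2 CPM) was 2.69 in 21A4, 0.98 in 21A5 and 7.38 in 21A7, the mouse whose mitochondrial share stood apart. How far the 21A calls of these subunits rest on 21A7 was not tested. Removing all mitochondrially encoded genes before scaling left 0 members called over 5 mice and 31 that differed between the series.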

How the data were processed

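Per the labels' protocols, total RNA of sorted cells was isolated with a column kit, amplified with SMARTer chemistry and made into Nextera XT libraries, which mark neither strand nor molecules. Per the submitters' processing notes, the tools were featureCounts, Subread 2.0.1, STAR 2.7.9a and fastp 0.23.1, with build GRCm39. How multi-mapping reads, strand and annotation were handled is not given in the sources used here, and members with near-identical pseudogenes are therefore uncertain. The values the authors deposited are raw read counts.

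Counts were filtered with filterByExpr, scaled with TMM and tested with the quasi-likelihood test of edgeR 4.0.16 in R 4.3.3, with the mouse as a block and Benjamini-Hochberg adjustment over all genes tested (threshold 0.05). Libraries of a mouse are pairs because they carry 1 animal identifier. Their deviations from the group means correlated over genes with r = 0.161 (21A4), 0.0741 (21A5), 0.637 (21A7), 0.292 (17C1) and 0.397 (17C2). DESeq2 1.42.0 and limma 3.58.1 were alternatives. The fits were tested on simulated data, where the paired fit missed most of the smallest changes simulated and the series interaction missed most changes of every size simulated, so genes that were not called may still differ. SE is the log2 fold change over the square root of F, and log2 CPM use a prior count of 2. Members and lists were chosen with earlier results of these data known. By rule, values are given for the isoform pairs and for the 2 members of each complex with the smallest paired p. They are also given for Atpif1, Cox7a2l and Ndufa4, as regulators or late-recognised subunits.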

Additional observations from a re-analysis of the deposited data

Results flagged for a closer look

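In 7 genes the GFP+ library of 21A7 lay far below the other 4 GFP+ libraries. Its log2 CPM was 6.44 for Cox4i1, 4.14 for Cox7a1, 4.14 for Cox8b, 4.90 for Cox6b1, 3.72 for Uqcr10, 5.58 for Cycs and 4.44 for Ndufa4. In the same library mitochondrially encoded genes took 91.2% of counts, and the part of that share was not tested. The GFP− library of 21A7 stood apart in the log2 ratio of Cox8a to Cox8b, which was 1.66 there and negative in the other 4 GFP− libraries. Such gaps were looked for in 74 groups of 5 libraries, and chance flags about 1 in 20 groups.

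The change between GFP+ and GFP− cells differed between the 21A and the 17C mice, tested as an interaction with edgeR, for 30 of 46 members. All had the more positive change in the 21A mice, as did 3.57% of all genes, while 4.04% went the other way. The count of members was 0 without the pairing by mouse, with library totals alone or with the covariate for other heart cells. In those fits 0 of all 12115 genes were called more positive in the 21A mice. The count of members was 2, both in the other direction, with sarcomere scaling, where 40.4% of all genes went that way. Among the genes given in full, the difference (21A minus 17C, log2) was 2.08 for Cox4i1, 2.87 for Cox6a2, 2.29 for Cox7a1, 1.26 for Cox7a2, 2.36 for Cox8b and 1.87 for Cox6b1. It was 1.95 for Sdhb, 1.67 for Uqcr10, 1.45 for Uqcrq, 1.47 for Atp5e and 1.86 for Atp5md, and among genes outside the rule 1.64 for Atpif1 and 1.44 for Ndufa4.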

How the results depend on the processing

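Over 5 mice the count of called members was 0 under every alternative that used both series, each mouse left out in turn included, and 1 in the 21A mice alone and 34 in the 17C mice alone. Relative to all tested genes the members' median was −0.072, but 0.63 in the 21A mice alone, −1.06 in the 17C mice alone, −0.72 with the cell type score, −0.44 with no replicate block, and between −0.33 and 0.25 with each mouse left out. Library totals alone moved the median of all genes to −1.15. The 30 members that differed between the series were 0 with no replicate block, with library totals alone or with the cell type score. In each of those fits 0 of all 12115 genes were called more positive in the 21A mice. The count of members was 2 (both negative) with sarcomere scaling, and 0 to 16 with a mouse left out, beside 0 to 419 of all genes called more positive. The 21A count was 0 with library totals, sarcomere scaling or no replicate block. Of all 13221 genes 2, 88 and 0 were called higher in those fits, and 318, 4934 and 0 lower. The 21A count was 9 by DESeq2 and 6 by limma voom, all higher, beside 773 and 880 of 13221 genes called higher. With a mouse left out it was 0 to 4, beside 26 to 776 of all genes called higher. The 17C count was 15 with library totals alone (4.02% of all genes called lower) and 6 with sarcomere scaling (1.9% lower and 28% higher). It was 29 with no replicate block, all lower, beside 547 of 11107 genes called lower. No test was run there with a mouse left out, since 1 pair has no residual degrees of freedom. The ratio of Cox6a1 to Cox6a2 shifted by −0.066 in the 21A mice alone, and that of Cox7a2 to Cox7a1 by 0.84 with an exact p of 0.0397 with no replicate block. Over 5 mice no member was called with or without the pairing. For the series difference and the fits within a series, the alternatives other than the stricter filter, size factors, the block and leaving out mice in the series difference were chosen after seeing the data.

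The log2 fold change over 5 mice of a gene given in full, none of them called, changed sign under some settings. In the 21A mice alone it was 0.64 for Cox4i1, 0.51 for Cox6a2, 0.26 for Cox7a1, 0.45 for Cox8b, 0.72 for Cox6b1, 0.049 for Sdha, 0.58 for Sdhb, 0.31 for Uqcrq, 0.26 for Atp5e, 0.14 for Cox7a2l and 0.46 for Ndufa4. In the 17C mice alone it was −0.57 for Cox7a2, −0.69 for Uqcr10, −0.47 for Cycs, −0.87 for Atp5md and −0.45 for Atpif1. With no replicate block it was −0.19 for Cox7a2, −0.052 for Uqcr10, −0.086 for Cycs and −0.37 for Atp5md. With library totals alone it was −0.48 for Cox6a1, −0.92 for Cox7a2, −0.49 for Cox8a, −0.82 for Uqcr10, −0.93 for Cycs, −0.90 for Atp5md and −0.59 for Atpif1. With sarcomere scaling it was −0.089 for Cox7a2, −0.076 for Cycs and −0.019 for Atp5md. With the cell type score it was −0.40 for Cox7a2, −0.42 for Uqcr10, −0.23 for Cycs, −0.30 for Atp5md and −0.31 for Atpif1. With each mouse left out in turn it ran from −0.54 to 0.19 for Cox4i1, −0.022 to 0.40 for Cox7a2, −0.32 to 0.29 for Cox6b1, −0.54 to 0.21 for Sdhb, −0.15 to 0.54 for Atp5md, −0.14 to 0.094 for Cox7a2l and −0.33 to 0.15 for Ndufa4. The cause of these changes was not tested.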
